A study of Mus musculus with 12 samples.

Results

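Krt5, Krt14 and Krt15 are the keratin genes by which the basal layer of stratified epithelium is usually recognised, and they are described here across cultured mouse stromal cells, epithelial cells converted from them, and keratinocytes. They were chosen by symbol, and make up 3 of the 24537 genes listed and 3 of the 55 listed keratin genes. All 3 passed the filter on low values (at least 1 FPKM, fragments per kilobase of transcript scaled to library depth, in at least 3 of 12 libraries). The study sequenced 4 groups of 3 cultures, and each mouse number, 1 to 3, marks the same animal in every group. All animals were of the strain Pdgfra-creERxLSL-tdTomato, in which a drug-inducible Cre under control of Pdgfra switches on a red reporter. The ADSCs were Pdgfra (+) stromal cells cultured from fat under the skin in DMEM with 10% FBS. In vitro iSEPs, induced stratified epithelial progenitor cells, had been converted from such cells in culture, and in vivo iSEPs were cultured from epithelial tissue that had formed from mesenchyme within the animal. Keratinocytes were primary cultures from back skin. The last 3 groups, called epithelial below, grew in serum-free keratinocyte medium, so medium and cell type cannot be told apart in any comparison with ADSCs. The agents of the conversion and the age of the animals are not given in the sources used here.

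Keratins form intermediate filaments only as pairs of a type I and a type II chain, so a cell needs at least 1 gene of each type. Krt5 (type II) and Krt14 (type I) are the pair of dividing basal cells, and inherited mutations of either gene make the skin blister. Krt15 is a further type I keratin of the basal layer that can pair with Krt5 and is widely used as a mark of the hair follicle bulge. When basal cells leave the layer they replace Krt5 and Krt14 with Krt1 and Krt10, and in wounds and in culture they add Krt6a, Krt6b, Krt16 and Krt17. The transcription factor p63, encoded by Trp63, is a known activator of both genes of the basal pair.

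In mm10, Krt5 lies on chromosome 15 (101707070 to 101712891, minus strand) among the type II keratins, and the listed transcript has 2179 bases. Krt14 (chromosome 11, 100203162 to 100206030, minus strand, 1112 bases) and Krt15 (chromosome 11, 100131759 to 100135949, minus strand, 1710 bases) lie among the type I keratins. The listed Krt14 transcript is a short one: the 636-base first exon of the longer GENCODE M21 model (100206913 to 100207548) lies outside it, so the Krt14 level rests on the rest of the gene. The members share stretches of coding sequence with the stress keratins that were abundant in the same libraries, and reads of such stretches cannot be assigned with certainty. The longest stretches of Krt14 that are identical base for base to another keratin are shown because they mark where a read could belong to either gene. They come from the GENCODE M21 transcripts (GRCm38). The first runs from the head of the protein into the start of the coiled-coil rod, and the other lies near the rod's end. The 2 ends of the rod are the parts of keratins best known for conservation. Capitals are not used in these 2 sequences.
Krt14 and Krt16, 134 bases of exon 1, chr11:100207017-100207150, minus strand, outside the listed Krt14 transcript: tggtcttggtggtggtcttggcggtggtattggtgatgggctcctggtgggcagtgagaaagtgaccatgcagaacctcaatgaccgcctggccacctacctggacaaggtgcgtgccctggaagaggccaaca
Krt14 and Krt17, 71 bases of exon 6, chr11:100204114-100204184, minus strand, inside the listed Krt14 transcript: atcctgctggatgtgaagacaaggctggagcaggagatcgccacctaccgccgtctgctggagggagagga

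Counted over windows of 50 bases, 7.36% of the Krt5 transcript (158 of 2148 windows) was identical to a stretch of another keratin, mostly Krt6a with 150 windows. For the short Krt14 transcript the share was 5.13% (55 of 1073 windows), all of it shared with Krt17, and for Krt15 it was 0.666% (11 of 1651). The long Krt14 model shared 14.4% of its windows, 188 of them with Krt16. Most of each member's sequence was therefore its own at this window length, and the part of Krt14 most alike to Krt16 was not in the listed transcript.

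The 250 bases before the RefSeq start of Krt5 (GRCm38.p6, chr15:101712906-101713155, minus strand) are shown because Krt5 was the most abundant of all genes in 5 of the 9 epithelial libraries. Capitals mark the only match to the motifs searched, a pair of loosely spelled p63 cores, CNNGNNNNNNCNNG, 97 bases before the start.
Krt5 promoter: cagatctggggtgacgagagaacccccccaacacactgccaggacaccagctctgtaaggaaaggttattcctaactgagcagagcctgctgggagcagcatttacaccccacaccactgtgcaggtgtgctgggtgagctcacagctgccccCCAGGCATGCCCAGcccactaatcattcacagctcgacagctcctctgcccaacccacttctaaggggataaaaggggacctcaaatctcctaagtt
The other motifs searched on both strands in this stretch were the TATA box (TATAAA), AP-2 (GCCNNNGGC), the GC box of Sp1 (GGGCGG) and AP-1 (TGANTCA). Of 32851 RefSeq windows of the same length, 63.5% held the p63 letters, 12.4% the TATA letters, 13.7% those of AP-2, 32.7% the GC box and 6.75% those of AP-1. A match says only that these letters are present. The Krt14 window of the same table belongs to the short transcript and is not shown, and Krt15 had no window.

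Each library held between 21010000 and 27760000 reads in listed genes, estimated from the low values. All 7 keratinocyte markers (Cdh1, Epcam, Trp63, Perp, Dsp, Itgb4 and Col17a1) reached 1 FPKM in every epithelial library, and their summed level was 3480 to 5695 FPKM there against 2.65 to 3.89 in ADSCs. The 10 stromal markers summed to 8873 to 11290 FPKM in ADSCs, 109 to 335 in the in vitro iSEPs, 30.2 to 189 in the in vivo iSEPs and 43.2 to 53.1 in keratinocytes. Adipoq and Plin1, which define fat cells, were at 0 in all 12 libraries, as were Tyr (melanocytes), Cd3e (T cells), Cd207 (Langerhans cells) and both globin genes. Other markers of these lists were detected. The 6 immune markers summed to 7.23 to 57.4 FPKM in ADSCs, where Lyz2 alone had 50.5 in mouse 2. Their sum was 9.09 to 14.2 in the in vitro iSEPs, 9.97 to 22.6 in the in vivo iSEPs and 2.71 to 4.25 in keratinocytes. The 6 melanocyte markers summed to 1.63 to 4.75 FPKM over all libraries. The 4 muscle markers summed to 26.7 to 69.5 FPKM in ADSCs and 83.7 to 101 in keratinocytes, nearly all of it Acta1. Their sum was 0.714 to 16.1 in the in vitro iSEPs and 0.807 to 70.1 in the in vivo iSEPs. The 5 endothelial markers summed to 0.713 to 9.75 FPKM over all libraries, and the 3 sebaceous markers to 106 to 278. Among the in vivo iSEPs, the library of mouse 3 stood apart: it had 103 FPKM of the simple epithelial keratin Krt8, where the other in vivo libraries had 0.159 and 0.166. Keratinocytes had 21.9 to 33.6 FPKM of Krt8 and the in vitro iSEPs 0.562 to 7.17. Differences of Krt5 and Krt14 in the in vivo iSEPs from the other epithelial groups are given with and without the in vivo library of mouse 3.

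Krt5 and Krt14 were trace transcripts in ADSCs and among the most abundant of all transcripts in the 3 epithelial groups, 1321-fold to 2031-fold higher by the ratio of means. Krt5 was at 5.76, 5.30 and 5.14 FPKM in ADSCs of mice 1, 2 and 3. In vitro iSEPs had 10691, 8842 and 11290 FPKM of Krt5. In vivo iSEPs had 9804, 9252 and 3410, and keratinocytes 8758, 8692 and 9454 FPKM. No epithelial library came near an ADSC library, and among the 9 only the in vivo library of mouse 3 was low for Krt5. Means were 5.40 ± 0.32 FPKM in ADSCs, 10270 ± 1280 in the in vitro iSEPs, 7489 ± 3540 in the in vivo iSEPs and 8968 ± 422 in keratinocytes (SD, n = 3 in each).

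Krt14 had 5.75, 4.90 and 6.15 FPKM in ADSCs of mice 1, 2 and 3. In vitro iSEPs had 10249, 8388 and 10813 FPKM. In vivo iSEPs had 9607, 6968 and 5621 FPKM, and keratinocytes had 10775, 11407 and 11929. Keratinocytes were highest here, every in vivo library lay below every keratinocyte library, and the in vitro libraries overlapped with both groups. The means were 5.60 ± 0.639 FPKM in ADSCs, 9817 ± 1270 in the in vitro iSEPs, 7399 ± 2030 in the in vivo iSEPs and 11370 ± 578 in keratinocytes (SD, n = 3 in each).

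Krt5 ranked first of all listed genes in all 3 in vitro libraries and in 2 in vivo libraries, and Krt14 ranked first in all 3 keratinocyte libraries. In the in vivo library of mouse 3 Krt14 ranked first and Krt5 was the third. Krt5 alone took 0.858% to 2.90% of the reads of an epithelial library and Krt14 0.722% to 1.55%. Their values rest on 199278 to 619842 reads in these libraries and on 160 to 400 reads in ADSCs, where counting error limits the precision.

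**Figure D1:**
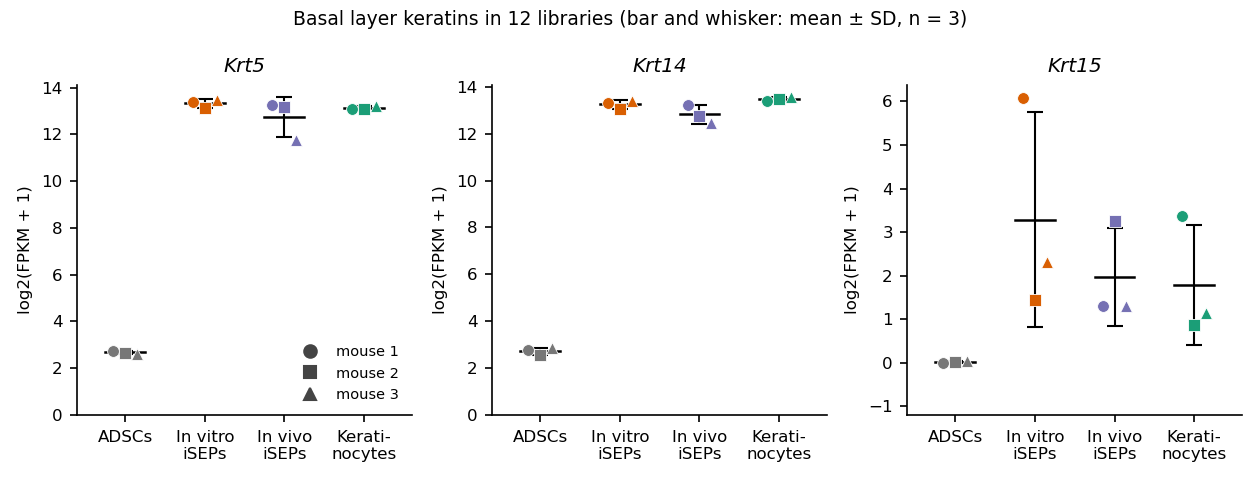
Level of each basal keratin in the 12 libraries, as log2(FPKM + 1) on the y axis, by group on the x axis. Symbols are single cultures and mark the mouse, the bar is the mean and the whiskers are the SD (n = 3). Krt5 and Krt14 sit between 11 and 14 in every epithelial library and below 3 in ADSCs, and Krt15 has 1 high library in each epithelial group.

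Differences were tested with limma on log2(FPKM + 1), with adjustment over the 12364 genes kept, and a gene was called at an adjusted p below 0.05. The log2 scale understates the change of low genes, and in bulk cultures fewer cells of a type and less RNA per cell cannot be told apart. Krt5 was 1903-fold higher in the in vitro iSEPs than in ADSCs by the ratio of means (log2 10.64 ± 0.342 SE, adjusted p = 1.26e-09). In the in vivo iSEPs it was 1387-fold higher (log2 10.05 ± 0.342 SE, adjusted p = 1.88e-09) and in keratinocytes 1661-fold higher (adjusted p = 1.33e-09). For Krt14 the folds were 1753 in the in vitro iSEPs (log2 10.54 ± 0.222 SE, adjusted p = 8.62e-11), 1321 in the in vivo iSEPs (adjusted p = 1.43e-10) and 2031 in keratinocytes (adjusted p = 8.73e-11). These 3 comparisons share the ADSC libraries. Called genes were common in all of them: 53.8% of genes tested were called in either direction for the in vitro iSEPs, 47.6% for the in vivo iSEPs and 53.5% for keratinocytes, so that a call alone was common. The median gene moved by 0.148, 0.136 and 0.184 on the log2 scale.

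Neither member of the pair was called between the epithelial groups, where 11.3% of genes were called between in vitro iSEPs and keratinocytes, 7.48% between in vivo iSEPs and keratinocytes and 1.63% between the iSEP groups. Krt5 in the in vitro iSEPs differed from keratinocytes by log2 0.19 (95% interval -0.56 to 0.94, adjusted p = 0.765) and Krt14 by log2 -0.22 (-0.71 to 0.27, adjusted p = 0.561). In the in vivo iSEPs the difference from keratinocytes was log2 -0.41 for Krt5 (-1.16 to 0.35, adjusted p = 0.539), and without the library of mouse 3 it was 0.09 (adjusted p = 0.817). The intervals reach from -1.16 to 0.94 on the log2 scale, and none of these tests shows that the groups were equal.

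Krt14 came closest to a call between in vivo iSEPs and keratinocytes. It was lower by log2 -0.65 (95% interval -1.14 to -0.17), with an unadjusted p of 0.0133 from limma and an adjusted p of 0.103. The groups did not overlap, as was so for 27.8% of all genes tested in that comparison. It was the only non-overlap of a member between epithelial groups: none occurred between the in vitro iSEPs and keratinocytes, where 40.8% of genes did not overlap, nor between the iSEP groups, where 15.0% did not. Leaving out the in vivo library of mouse 1 brought Krt14 under the threshold (log2 -0.86, adjusted p = 0.0191), and leaving out the in vivo library of mouse 3 gave log2 -0.47 (adjusted p = 0.166). Between the iSEP groups the differences of in vivo from in vitro were log2 -0.60 for Krt5 (-1.35 to 0.16, adjusted p = 0.46) and log2 -0.44 for Krt14 (-0.92 to 0.05, adjusted p = 0.399). Without the in vivo library of mouse 3 they were log2 -0.10 (adjusted p = 0.834) and -0.25 (adjusted p = 0.586). Over all fits that left out 1 library or 1 mouse, Krt5 ran from -0.93 to -0.03 and Krt14 from -0.64 to -0.18.

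The order of the group means differed between the partners. For Krt5 it ran from the in vitro iSEPs through keratinocytes to in vivo iSEPs, and for Krt14 from keratinocytes through in vitro to in vivo iSEPs. No neighbours in either order were told apart by the tests, apart from ADSCs at the bottom. The ratio of Krt5 to Krt14 compares the partners within each library.

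The ratio of Krt5 to Krt14 FPKM was 1.04, 1.05 and 1.04 in the in vitro iSEPs of mice 1, 2 and 3. In keratinocytes it was 0.813, 0.762 and 0.792. In vivo iSEPs had 1.02, 1.33 and 0.607, and ADSCs 1.00, 1.08 and 0.836. In vitro libraries were nearly identical to each other and all above the keratinocyte libraries, whereas in vivo libraries ranged from above all others to below all others. The means were 1.05 ± 0.00608 in the in vitro iSEPs, 0.789 ± 0.0256 in keratinocytes, 0.985 ± 0.362 in the in vivo iSEPs and 0.973 ± 0.125 in ADSCs (SD, n = 3).

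The ratio was 1.33-fold higher in the in vitro iSEPs than in keratinocytes (log2 0.41). With 3 against 3 cultures the exact two-sided permutation test gave p = 0.1, the smallest this design allows, and adjusted p = 0.6 over the 12 pairwise comparisons of ratios. Over the 3 epithelial groups together, an exact permutation test on the between-group sum of squares of the log2 ratio (1680 arrangements) gave p = 0.311. The adjusted p over 3 ratios was 0.664. Without the in vivo library of mouse 3 the range of the group means was log2 0.56. The same exact permutation test then gave adjusted p = 0.0429, so that library decides this result. In that library Krt5 lay further below the other in vivo libraries than Krt14 did.

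**Figure D2:**
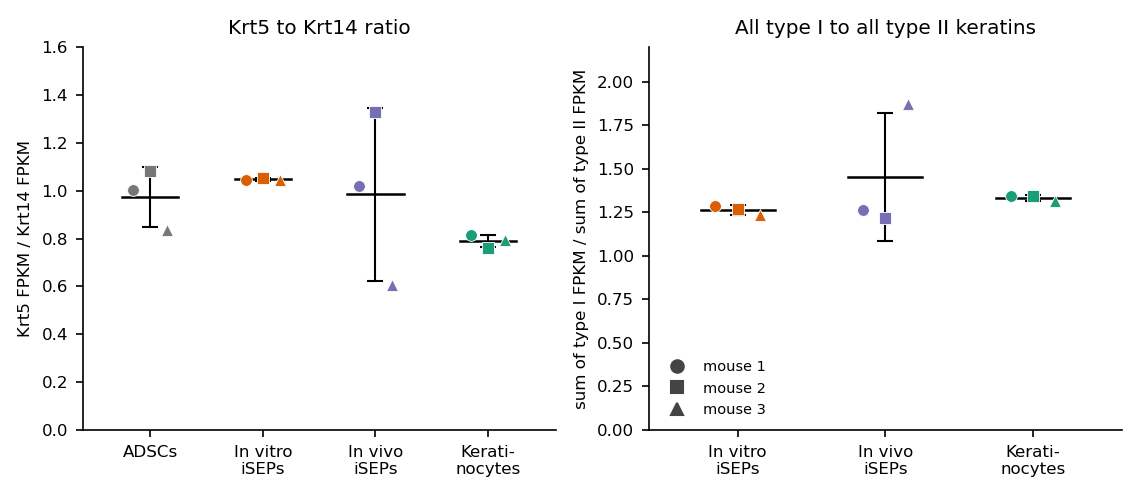
Left, Krt5 FPKM divided by Krt14 FPKM in each library, and right, summed FPKM of 27 type I keratins divided by that of 27 type II keratins in the epithelial libraries. Symbols mark the mouse, and bars and whiskers are mean and SD (n = 3). In vitro iSEPs sit at 1.04 to 1.05 on the left and keratinocytes at 0.762 to 0.813, while the in vivo library of mouse 3 is lowest on the left (0.607) and highest on the right (1.88).

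The in vivo library of mouse 3 also differed in other keratins and markers. Krt18, the type I partner of Krt8 in simple epithelia, was at 95.5 FPKM there and at 2.79 and 2.66 in the other in vivo libraries. It was at 4.68 to 24.4 FPKM in the in vitro iSEPs and 27.5 to 37.3 in keratinocytes. Epcam, an adhesion protein of epithelia, had 116 FPKM in the in vivo library of mouse 3 against 16.6 and 6.87. That level was nearer to those of keratinocytes (138 to 162). Vim, the mesenchymal filament protein vimentin, had 148 FPKM against 26.5 and 47.0, but the in vitro iSEPs reached a like level (42.2, 147 and 115). The 4 markers of Merkel cells and simple epithelium summed to between 2.84 and 198 FPKM in the in vivo iSEPs, with Atoh1, which defines Merkel cells, at 0 in all 12 libraries. The 10 stromal markers reached 189 FPKM of 30.2 to 189 in that group. Their part in the low Krt5 level was not tested.

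Krt15 was far less abundant than Krt5 or Krt14 in every epithelial library. It varied more between cultures than at least 95.2% of the genes compared in each epithelial group. ADSCs of mice 1, 2 and 3 had 0, 0.020 and 0.021 FPKM, which is 0, 1 and 1 read. In vitro iSEPs had 66.8, 1.72 and 3.98 FPKM. In vivo iSEPs had 1.48, 8.56 and 1.49 FPKM, and keratinocytes 9.27, 0.809 and 1.21. Each epithelial group held 1 high library, from mouse 1 in the in vitro iSEPs and keratinocytes and from mouse 2 in the in vivo iSEPs, and all 3 groups overlapped. The means were 24.2 ± 37.0, 3.84 ± 4.08 and 3.76 ± 4.78 FPKM (SD, n = 3) in the order in vitro, in vivo and keratinocytes.

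These levels rest on 40 to 2932 reads in the epithelial libraries, so the spread between cultures was far beyond counting error. Pooled over 3 libraries, Krt15 had 3189 reads in the in vitro iSEPs, 595 in the in vivo iSEPs, 580 in keratinocytes and 2 in ADSCs. At equal depth the in vivo count was 302 times that of ADSCs (exact 95% interval 83.1 to 2497) and the keratinocyte count 298 times (82.2 to 2469). The high library carried most of each sum: without it, an alternative chosen after seeing the data, the in vivo ratio was 116 (31.5 to 965) and the keratinocyte ratio 78.9 (21.3 to 660). These intervals cover counting error only and say nothing of the spread between animals.

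With limma, Krt15 rose in the in vitro iSEPs against ADSCs by log2 3.26 ± 1.07 SE (adjusted p = 0.0234). With any 1 of the ADSC libraries left out the difference stayed at log2 3.25 to 3.27, with adjusted p = 0.057 to 0.0575, and so missed the threshold. Nor did the call hold without the high in vitro library of mouse 1 (log2 1.86, adjusted p = 0.0642). With mouse 1 left out of all groups Krt15 was still called (log2 1.85, adjusted p = 0.041). In the in vivo iSEPs the difference from ADSCs was log2 1.94 (adjusted p = 0.159) and in keratinocytes log2 1.77 (adjusted p = 0.186). Every epithelial library nevertheless lay above every ADSC library, as 63.7%, 54.2% and 69.5% of all genes tested did not overlap in these comparisons. A smaller pseudocount of 0.1, which weighs low values more, put both of these under the threshold (log2 4.62, adjusted p = 0.0104, and log2 4.30, adjusted p = 0.0138).

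Between the epithelial groups the intervals for Krt15 were wide. In vitro iSEPs differed from keratinocytes by log2 1.496 (95% interval -0.85 to 3.85, adjusted p = 0.394), and by log2 0.09 (adjusted p = 0.959) without the in vitro library of mouse 1. In vivo iSEPs differed from keratinocytes by log2 0.18 (-2.17 to 2.52, adjusted p = 0.957) and from the in vitro iSEPs by log2 -1.32 (-3.67 to 1.03, adjusted p = 0.63). Relative to Krt14, Krt15 was 0.652%, 0.0205% and 0.0368% in the in vitro iSEPs of mice 1, 2 and 3. It was 0.0154%, 0.123% and 0.0264% in the in vivo iSEPs and 0.0861%, 0.00709% and 0.0101% in keratinocytes. Krt15 thus contributed under 1% of the Krt14 level in every epithelial library. The ratio of Krt15 to Krt14 was 4.31-fold higher in the in vitro iSEPs than in keratinocytes (log2 2.11, adjusted p = 0.764 by exact permutation), but with 3 against 3 cultures no such pair of groups could pass the threshold.

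Krt15 had a wider spread between cultures than Krt5 or Krt14 in each epithelial group. The highest Krt15 library exceeded the lowest 38.9-fold in the in vitro iSEPs, 5.78-fold in the in vivo iSEPs and 11.5-fold in keratinocytes. The SD of log2 FPKM was 2.77, 1.46 and 1.89, which placed Krt15 at percentile 99.7, 95.2 and 99.9 of all genes compared in those groups. For Krt5 the SD was 0.185 in the in vitro iSEPs (percentile 38.5), 0.857 in the in vivo iSEPs (percentile 88.5) and 0.067 in keratinocytes (percentile 19.2). Krt14 had 0.193, 0.389 and 0.074, at percentiles 40.7, 63.6 and 22.5, and the median gene had 0.231, 0.293 and 0.136. The pair was thus no more variable than a typical gene in the in vitro iSEPs and keratinocytes, and more variable in the in vivo iSEPs, where Krt5 owed its spread to 1 library.

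In each epithelial group the library with the most Krt15 was also the one with the most Krt1 and the most Krt10, the keratins of the layers above the basal one. Krt1 had 167, 1.17 and 21.7 FPKM in the in vitro iSEPs of mice 1, 2 and 3, then 7.37, 37.4 and 0.979 in the in vivo iSEPs and 1.25, 0.355 and 0.355 in keratinocytes. Krt10 had 92.3, 2.95 and 34.9 FPKM in the in vitro iSEPs, 4.998, 21.9 and 3.09 in the in vivo iSEPs and 1.00, 0.747 and 0.702 in keratinocytes. Over the 9 epithelial libraries Krt15 had r = 0.812 with Krt1 and r = 0.741 with Krt10 on the log2(FPKM + 1) scale, against r = 0.326 with Krt5 and r = 0.065 with Krt14. These r values describe 9 libraries of 3 animals in 3 groups and lean on the in vitro library of mouse 1. The keratinocyte levels of Krt1 and Krt10 were near 1 FPKM, so the match there concerns small values.

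**Figure D3:**
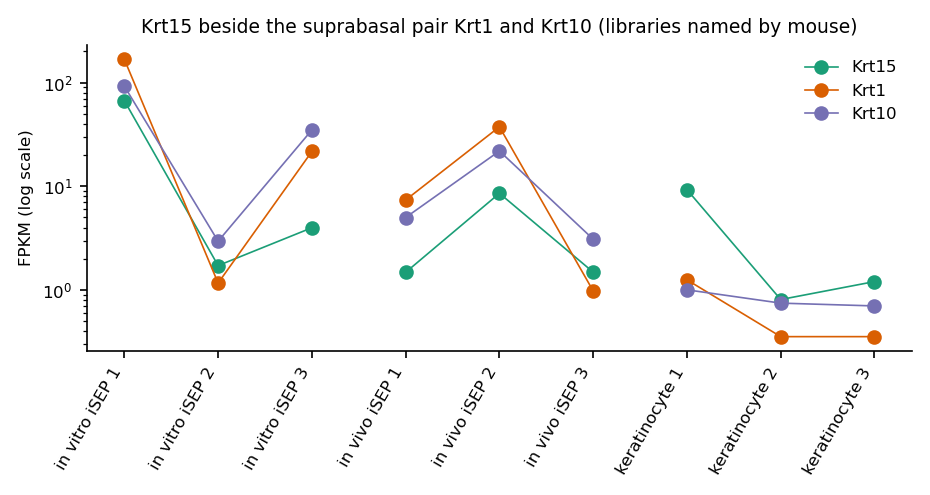
FPKM of Krt15, Krt1 and Krt10 on a log y axis in the 9 epithelial libraries, named on the x axis by group and mouse. Lines join the libraries of a group and carry no order. All 3 genes peak in the same library of each group: mouse 1 for the in vitro iSEPs and keratinocytes, mouse 2 for the in vivo iSEPs.

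Among all genes kept, those whose levels followed Krt5 most closely over the 9 epithelial libraries were Srsf2 (r = 0.961), Nudt3 (0.957), Snord32a (0.956), Pcnp (0.952) and Shmt1 (0.951). All 5 were lowest in the in vivo library of mouse 3, where Srsf2, a splicing factor gene, had 50.6 FPKM against 72.4 to 86.0 in the others. For Krt14 they were Actr2 (r = 0.967), Ap1ar (0.959), Cc2d2a (0.959), Ipo8 (0.955) and Cwf19l1 (0.955). For Krt15 they included Plk3 (r = 0.969), Cib2 (0.96), 9130008F23Rik (0.943) and Nod1 (0.919), all highest in the in vitro library of mouse 1. The partners themselves had r = 0.751 with each other over these libraries. Over all 12 libraries r was 0.998 for the pair, and Krt5 lay closest to Lad1, S100a14 and Esrp1 (0.999 each), Krt14 to S100a14 (0.999), Krt6a (0.999) and Rnpepl1 (0.998), and Krt15 to Mb (0.928), Nog (0.911) and Hotairm1 (0.905), values set largely by ADSCs against the rest for the pair.

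The basal pair made up most of the keratin message of epithelial cultures. Of summed type I keratin FPKM, Krt14 gave 62.97%, 59.4% and 59.5% in the in vitro iSEPs of mice 1, 2 and 3. It gave 63.3%, 52.9% and 60.2% in the in vivo iSEPs and 72.9%, 75.0% and 73.5% in keratinocytes. Every iSEP library was below every keratinocyte library for this share, which no test was run on. Krt17, induced in wounded skin and in culture, gave most of the rest: 30.7% to 38.1% in the in vitro iSEPs, 31.6% to 44.9% in the in vivo iSEPs and 23.6% to 25.1% in keratinocytes. Krt16, another stress keratin, gave 2.13% to 5.10%, 1.87% to 5.04% and 1.08% to 1.73%. Krt15 gave at most 0.411% of type I message in any epithelial library.

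On the type II side, Krt5 held 76.6% to 84.5% of the summed FPKM in the in vitro iSEPs, 68.5% to 85.4% in the in vivo iSEPs and 76.5% to 79.5% in keratinocytes. Krt6a, the stress partner of Krt16 and Krt17, held 11.99% to 21.0%, 13.6% to 26.9% and 18.7% to 21.9%. Here the 3 groups overlapped for both genes. Type I message exceeded type II message 1.23-fold to 1.29-fold in the in vitro iSEPs and 1.31-fold to 1.34-fold in keratinocytes. In the in vivo iSEPs the ratio was 1.26, 1.21 and 1.88, and the high value was that of mouse 3. In ADSCs the type I sum was 35.1 to 61.9 FPKM, 50.9% to 75.0% of it Krt19, a simple epithelial keratin, and the type II sum was 10.0 to 12.4 FPKM.

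**Figure D4:**
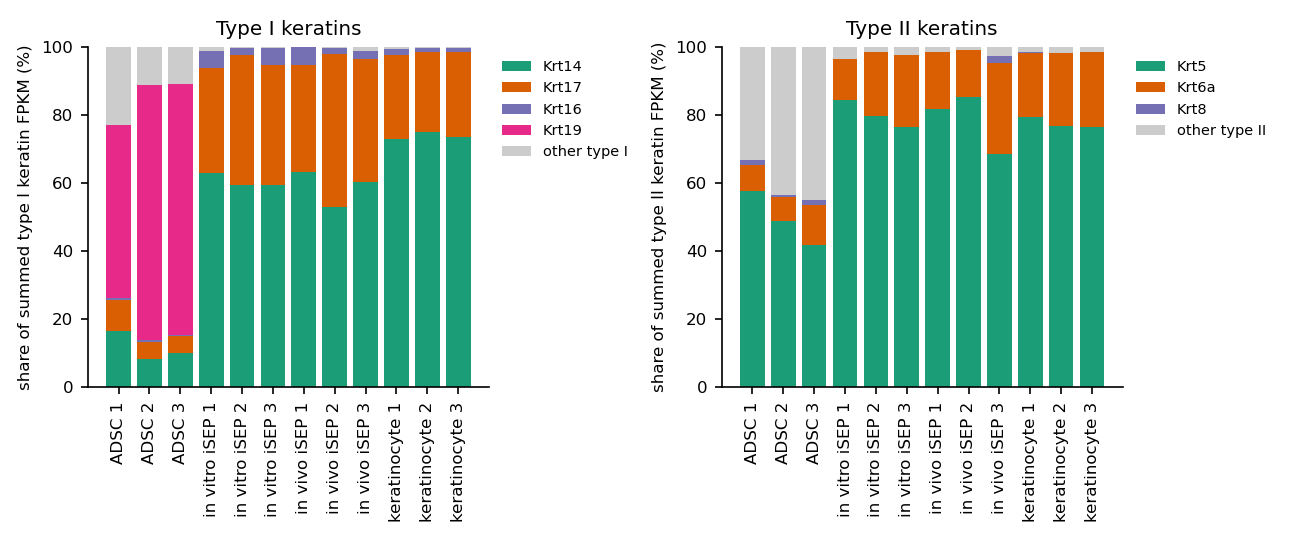
Share of summed type I keratin FPKM (left) and type II keratin FPKM (right) held by each keratin, in percent on the y axis, in the 12 libraries named by group and mouse on the x axis. Krt14 fills 52.9% to 63.3% of the type I bar in iSEPs and 72.9% to 75.0% in keratinocytes, with Krt17 taking most of the rest. The ADSC bars divide sums of only 35.1 to 61.9 FPKM (type I) and 10.0 to 12.4 FPKM (type II).

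Neighbours on the chromosome did not all follow the members. Next to Krt5, Krt6a and Krt6b, the nearest keratin genes on that side, were at 1340 to 3090 and 5.36 to 164 FPKM in epithelial libraries. On the other side of Krt5, Krt71, Krt74 and Krt72, keratins of the hair follicle's inner sheath, stayed at 0.672 FPKM or less. Beside Krt14, Krt16 (42.9 kb away) and Krt17 (53.1 kb away) were abundant at 164 to 868 and 3386 to 6416 FPKM, whereas Krt9, the nearest keratin gene on the other side and a keratin of sole skin, did not exceed 0.047 FPKM. Krt19, 9.1 kb from Krt15, had 36.0 ± 15.8 FPKM in ADSCs (SD, n = 3), the group in which Krt15 was nearly absent. High and low keratin genes thus lay side by side in both clusters.

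The trace of Krt5 and Krt14 in ADSCs was a nearly constant share of the epithelial level. Set against the mean of the 9 epithelial libraries, Krt5 in ADSCs stood at 0.0606% ± 0.00359 and Krt14 at 0.0588% ± 0.00671 (SD, n = 3). Other epithelial genes had shares close to these: Krt17 0.0665%, Krt6a 0.0487%, Krt16 0.0571%, Perp 0.0695%, Dsp 0.0702%, Col17a1 0.0716% and Cdh1 0.0798%. Epcam stood at 0.145% and Itgb4 at 0.154%. Of the 58 genes with an epithelial mean of at least 500 FPKM, the median stood at 53.0% in ADSCs, and 8 were under 0.1%: Krt6a, Krt14, Krt5, Krt17, Ly6d, Perp, Col17a1 and Lgals7 (chosen after their values were seen). Where the ADSC reads of these genes came from was not tested.

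**Figure D5:**
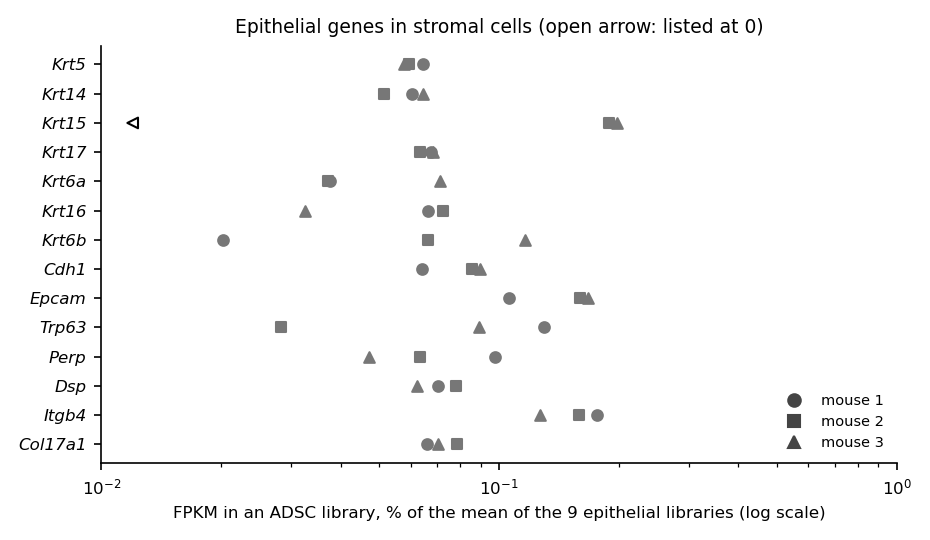
Level of 14 epithelial genes in each ADSC library as a percent of the gene's mean in the 9 epithelial libraries (x axis, log scale). Symbols mark the mouse, and the open arrow marks Krt15 listed at 0. Krt5 and Krt14 lie between 0.0514% and 0.0646% in all 3 libraries, and the low-level genes Krt6b and Trp63 scatter more.

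Desmosomes and hemidesmosomes hold keratin filaments at the membrane. For the gene lists that follow, the shares over all genes tested are the background: against ADSCs 32.1% rose and 21.7% fell with conversion in vitro, 27.6% rose and 20.0% fell with conversion in vivo, and 32.8% were higher and 20.7% lower in keratinocytes. Against keratinocytes 5.22% were higher and 6.12% lower after conversion in vitro, and 3.41% and 4.08% after conversion in vivo. From in vitro to in vivo iSEPs 0.679% were higher and 0.946% lower. Of 20 desmosome and hemidesmosome genes, 18 rose and 1 fell in the in vitro iSEPs against ADSCs, 19 rose in the in vivo iSEPs and 18 rose in keratinocytes, with median log2 changes of 6.66, 6.77 and 6.84. Col17a1, the hemidesmosome collagen, was at 1013 ± 122 FPKM in the in vitro iSEPs and 0.658 ± 0.0585 in ADSCs (adjusted p = 1.41e-11). Dsp (desmoplakin), which ties keratin to desmosomes, was at 571 ± 69.1 and 0.33 ± 0.0375 FPKM (adjusted p = 8.65e-13). Between in vitro iSEPs and keratinocytes 1 anchor gene was higher and 4 were lower in the in vitro iSEPs: the desmosome genes Dsg2 (log2 -1.60, adjusted p = 0.0356) and Pkp2 (-1.36, adjusted p = 0.0241), and Itgb4 (-0.89, adjusted p = 0.00888) and Itga6 (-0.76, adjusted p = 0.0222), which together form the hemidesmosome integrin. None of the 20 was called between in vivo iSEPs and keratinocytes, and 1, Evpl, was lower in in vivo than in the in vitro iSEPs (log2 -1.09, adjusted p = 0.0471).

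Of 17 other basal layer genes, 14 rose in each epithelial group against ADSCs, and 1 fell in each iSEP group. Sfn, the stratifin gene, was at 878 ± 189 FPKM in the in vitro iSEPs, 895 ± 215 in the in vivo iSEPs and 769 ± 37.1 in keratinocytes against 1.36 ± 0.224 in ADSCs. Against keratinocytes, 1 was higher and 5 were lower in the in vitro iSEPs, and 1 was higher and 3 were lower in the in vivo iSEPs. The higher one was Bcam, a laminin receptor, in both (82.9 ± 42.0 and 89.6 ± 35.7 against 19.7 ± 5.37 FPKM, adjusted p = 0.0143 and 0.0113). The lower ones included Itga2 and Itga3, integrin genes, in the in vitro iSEPs (log2 -1.80 and -0.96, adjusted p = 0.0129 and 0.0404), and Fat2 and Cdh3, both of the cadherin family, in the in vivo iSEPs (log2 -0.97 and -0.47, adjusted p = 0.00603 and 0.0347). These 2 comparisons share the keratinocyte libraries.

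Of 33 transcription factors known at basal keratin promoters or in basal cells, 32 passed the filter. In the in vitro iSEPs 22 rose and 3 fell against ADSCs, in the in vivo iSEPs 20 rose and 5 fell, and in keratinocytes 21 rose and 5 fell. Trp63 was at 105, 75.2 and 55.8 FPKM in the in vitro iSEPs of mice 1, 2 and 3, at 59.3, 156 and 80.7 in the in vivo iSEPs and at 35.1, 32.9 and 36.7 in keratinocytes. All iSEP libraries were above all keratinocyte libraries (log2 1.11, adjusted p = 0.0402 for in vitro and log2 1.35, adjusted p = 0.0216 for the in vivo iSEPs), whereas Krt5 and Krt14 were not called in these comparisons. Reads of the animal's own Trp63 and of any copy delivered for the conversion cannot be told apart in these values. Over the 9 epithelial libraries Trp63 had r = -0.104 with Krt5 and r = -0.682 with Krt14. For Tfap2a, an AP-2 gene, r was 0.41 with Krt5 and 0.698 with Krt14. These r values mix differences between the 3 groups with those between libraries of a group. What they mean for regulation was not tested.

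Of 5 wound and stress keratin genes 4 passed the filter, all 4 rose in each epithelial group against ADSCs, and none was called between epithelial groups. Krt17 was at 5600 ± 732 FPKM in the in vitro iSEPs, 4694 ± 1260 in the in vivo iSEPs and 3766 ± 260 in keratinocytes. Krt16 was at 666 ± 317, 407 ± 310 and 198 ± 49.6 FPKM in the same order. Of 16 suprabasal genes 13 passed the filter, and against ADSCs 13 rose with conversion in vitro, 8 with conversion in vivo and 7 in keratinocytes. In the in vitro iSEPs 4 were higher than in keratinocytes: Krt10 (log2 3.71, adjusted p = 0.0302), Dsg1a (2.66, adjusted p = 0.0344), Tgm1 (1.85, adjusted p = 0.0299) and Sbsn (1.68, adjusted p = 0.00179). The in vivo iSEPs had none called against keratinocytes and 2 lower than in vitro iSEPs, Tgm1 and Sbsn.

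Of 12 hair follicle stem and bulge genes, the setting in which Krt15 is best known, 8 passed the filter. Against ADSCs 2 rose and 3 fell in each iSEP group, and 3 rose and 3 fell in keratinocytes. Sox9, a factor of follicle stem cells, rose to 22.1 ± 5.79 FPKM in the in vitro iSEPs, 15.4 ± 4.94 in the in vivo iSEPs and 34.3 ± 3.14 in keratinocytes from 5.03 ± 3.12. Lgr5 was lower in all 3 groups than in ADSCs (at most 0.038 ± 0.048 against 2.33 ± 2.1 FPKM, adjusted p = 0.00139 to 0.0018). Of 6 simple epithelial keratins, Krt7 rose in all 3 groups and Krt19 and Krt20 fell in all 3, and Krt8 and Krt18 rose in keratinocytes (27.8 ± 5.83 and 31.6 ± 5.07 FPKM, adjusted p = 0.0153 and 0.0085). None of the 6 was called between epithelial groups.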

How the data were processed

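Libraries were prepared from total RNA with a TruSeq RNA kit, per the labels' protocols. STAR 2.5.1b, FastQC 0.11.5, HOMER and the mm10 build are named in the submitters' processing notes. The authors deposited FPKM per gene, which HOMER summed over RefSeq exons on the transcript's strand with 1 transcript per gene, per the file headers. Whether the libraries keep the strand is not stated in those sources, and without it reads of overlapping genes on opposite strands cannot be told apart. A further 3 columns matched no sample and were not used.

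limma 3.58.1 (R 4.3.3) was fitted to log2(FPKM + 1): 4 group means, 12 libraries, variances moderated to a trend, two-sided tests, Benjamini-Hochberg over the 12364 genes that reached 1 FPKM in 3 or more libraries. Reads were recovered from FPKM and length: all low values came out whole within 0.15 reads. Since the values are FPKM, no count-based inference was made apart from the exact intervals for pooled Krt15 reads, which cover counting error only. Ratios were compared by exact permutation over samples. The code was tested on simulated data. The members and gene lists were chosen with earlier results of these data known, and per list the 4 largest changes among called genes could be named. Alternatives were another pseudocount, filters, scalings, prior, 2-group fits, a replicate block and leaving out libraries. Per the labels the same 3 animals gave each group, so the numbers pair the libraries; deviations of same-mouse libraries from their group means correlated by -0.178 to 0.21 across genes. The p-values measure the spread between single cultures of 3 animals. A few items are not reported here.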

Additional observations from a re-analysis of the deposited data

How the results depend on the processing

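Krt5 and Krt14 kept their calls against ADSCs under every alternative run, and no alternative other than leaving out libraries called either gene between epithelial groups. Krt15 passed the threshold in in vivo iSEPs against ADSCs with a pseudocount of 0.1 (log2 4.62, adjusted p = 0.0104) and with only those groups in the fit (1.94, adjusted p = 0.023), and in keratinocytes against ADSCs likewise (4.30, adjusted p = 0.0138, and 1.77, adjusted p = 0.0324). With quantile normalization Krt14 in in vivo against in vitro iSEPs turned to log2 0.063 (adjusted p = 0.884). With the replicate block (mouse as a term) 128 genes were called between the iSEP groups against 201 without it, and it changed no call of a member or a ratio. With only 2 groups in the fit 424 genes were called between in vivo iSEPs and keratinocytes, against 925, and 1 between the iSEP groups. The causes were not tested.

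Leaving out 1 library or 1 mouse gave these ranges. Krt15 against ADSCs was log2 1.85 to 4.18 in in vitro iSEPs (adjusted p = 0.00829 to 0.0837; lost also without mouse 3 throughout) and 1.29 to 2.27 in in vivo iSEPs (called without mouse 1 throughout, log2 2.26, adjusted p = 0.0244). Krt15 in keratinocytes against ADSCs was 0.97 to 2.24, and in in vitro iSEPs against keratinocytes 0.09 to 2.42, lowest without the in vitro library of mouse 1. Krt15 in in vivo iSEPs ran from -0.94 to 1.29 against keratinocytes and from -2.89 to 0.41 against in vitro iSEPs. Krt5 in in vivo iSEPs against keratinocytes ran from -0.69 to 0.13, positive only without mouse 3, and Krt14 from -0.90 to -0.44, called without mouse 1 throughout (adjusted p = 0.0477) or without its in vivo library. The log2 ratio of Krt5 to Krt14 in in vivo iSEPs ran from -0.30 to 0.27 against ADSCs, from -0.41 to 0.15 against in vitro iSEPs and from 0.00 to 0.56 against keratinocytes (lowest value -0.004), and its range over the epithelial groups from 0.38 to 0.56. In in vivo against in vitro iSEPs the log2 ratio of Krt15 to Krt14 ran from -2.07 to 0.42 and that of Krt15 to Krt5 from -1.92 to 0.59. Genes called against ADSCs numbered 3642 to 6269 for in vitro iSEPs, 2870 to 6271 for in vivo iSEPs and 3274 to 5851 for keratinocytes. Between in vitro iSEPs and keratinocytes 171 to 1169 were called, between in vivo iSEPs and keratinocytes 32 to 1669 and between the iSEP groups 1 to 348. Where an arm was left with 2 libraries, the fit assumes that they vary like the other groups. Depth limits Krt15 in ADSCs alone, at 0 to 1 read a library.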
